A study of Rattus norvegicus with 2 samples.

Results

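The 7 genes described here encode 3 opioid peptide precursors (Penk, Pdyn and Pnoc) and 4 opioid receptors (Oprm1, Oprd1, Oprk1 and Oprl1). They were taken by name from rat 1-colour expression arrays, where 13 of 30356 non-control probes carried one of these names. RNA came from the hypothalamic paraventricular nucleus of male Sprague Dawley rats aged 12 weeks. One group was offspring of mothers given dexamethasone, a synthetic glucocorticoid, at 200 µg/kg in the third trimester, and the control group was offspring of mothers given vehicle. Each group had 1 array, so no test of the treatment was possible, and every difference below is between 2 arrays. The sources used here do not state whether 1 animal or several gave the RNA of an array.

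Opioid peptides are cut from large precursor proteins in neurons. Proenkephalin, from Penk, gives the enkephalins, which act mainly on the delta and mu receptors (Oprd1, Oprm1). Prodynorphin, from Pdyn, gives the dynorphins, which act mainly on the kappa receptor (Oprk1). Prepronociceptin, from Pnoc, gives nociceptin, whose receptor is encoded by Oprl1. All of these receptors couple to inhibitory G proteins, which lower cyclic AMP, open potassium channels and reduce transmitter release. In the paraventricular nucleus, dynorphin is made by vasopressin neurons, which it restrains, and opioid receptors influence hormone release and sympathetic outflow.

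The probes that carry the main differences are shown to make clear which part of each transcript was read. The Penk and shared Oprm1 probes are given whole, and the other probes by the first 30 of their 60 bases. Capitals in the Penk probe mark bases 39 to 53, codons for the residues of Met-enkephalin. The codons after them encode arginine and phenylalanine, so the copy read by this probe runs on past Met-enkephalin. Positions are those of the rn4 assembly, as the files give them.
Penk (chr5:17509637-17509696, minus strand): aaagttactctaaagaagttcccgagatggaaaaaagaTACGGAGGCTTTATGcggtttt
Pdyn (chr3:117291061-117291120, minus strand): aatcacatttatccaaattacttggaacat
Pnoc (chr15:44822650-44822709, minus strand): ggagctgttctttttgactgattgtttgaa
Oprm1, shared probe (chr1:37568914-37568973, plus strand): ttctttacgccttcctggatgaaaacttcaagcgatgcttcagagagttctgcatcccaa
Oprm1, transcript variant 1 (chr1:37588681-37588740, plus strand): acgctcttttgtattattttccctgatgcc
Oprl1, repeated probe (chr3:170874575-170874634, plus strand): tgccaaattggaggttggtatgagagctga
The exon or untranslated region that each probe lies in was not annotated in the files used here. The brighter Oprk1 probe lies at chr5:14038275-14038334 and the Oprd1 probe at chr5:150979864-150979923, both on the minus strand.

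All 3 precursors had a higher signal in the dexamethasone array, and 2 of them, Pdyn and Penk, passed the 2-fold size rule. Of the 4 receptors 3 had a lower signal and 1, Oprd1, a slightly higher one, and none passed 2-fold on its brightest probe. The median difference was 1.34 for the precursors and -0.35 for the receptors, on the log2 scale as dexamethasone minus control after scaling each array to its 75th percentile. Over all 14176 named genes measured on both arrays, the median difference was 0.0090 and 51.3% were above 0. Among those genes 5.76% passed 2-fold either way, 3.37% upward and 2.38% downward, beside 2 of 7 opioid genes upward and 0 downward. All 7 genes were measured, meaning well above background on both arrays, through 12 of their 13 probes. In bulk tissue, a different number of cells of a type and a different amount of RNA per cell cannot be told apart.

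**Figure D1:**
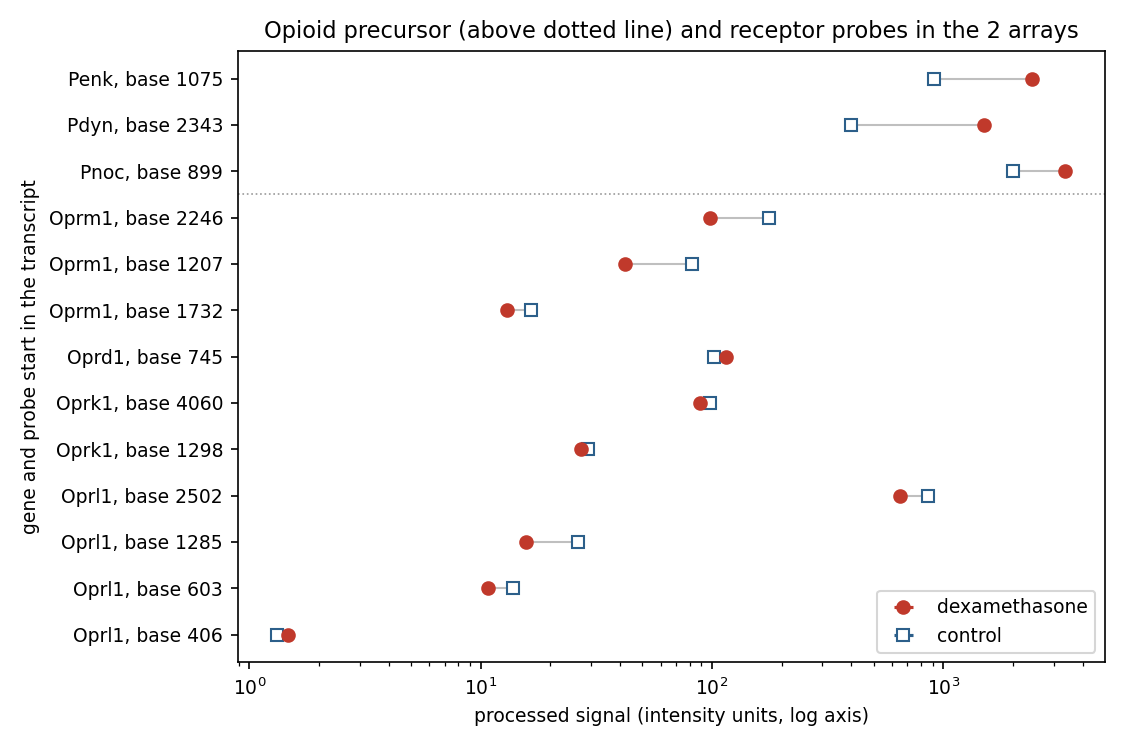
Processed signal (intensity units, log axis) of each probe of the 7 genes in the dexamethasone array (filled circles) and the control array (open squares), listed by gene and by the base of the transcript where the probe starts. Bars, smaller than most symbols, are SDs over 10 spots for the Penk probe and the Oprl1 probe at base 2502. The precursor probes above the dotted line lie to the right in the dexamethasone array, and 8 of the 9 measured receptor probes lie to the left. These 9 probes belong to 4 genes.

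Pdyn had the largest difference of the 7 genes. Its probe gave a processed signal of 1503 in the dexamethasone array, against 398.9 in the control array. After scaling this was 3.58-fold higher, a log2 difference of 1.84 with a scanner error of 0.20, which is the scanner software's own error of a spot and not a spread between animals. Pdyn ranked 147th from the highest of the 14176 genes. The 1 Pdyn probe was spotted once on each array, so no repeated spots back this value.

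Penk was read by 10 spots on each array. They averaged 2429 ± 66.4 in the dexamethasone array and 913.1 ± 30.5 in the control array (SD over 10 spots). The spots ran between 2333 and 2561 in the dexamethasone array and between 851.1 and 952.3 in the control array. Each spot position was higher in the dexamethasone array, by 1.29 to 1.44 on the log2 scale. The difference was 1.34 (2.53-fold), with a scanner error of 0.20 and an SD of 0.050 between spot positions. Over 1315 repeated probes the median of this SD was 0.041. It is a spread within the arrays and not between animals. Penk ranked 287th from the highest.

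Pnoc was also higher, but by less than 2-fold. Its single spot gave 3368 in the dexamethasone array and 2005 in the control array. The scaled difference was 0.67 (1.59-fold) with a scanner error of 0.20, and Pnoc ranked 843rd from the highest. By the size of the difference the precursors stood in the order Pdyn, Penk and Pnoc.

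**Figure D2:**
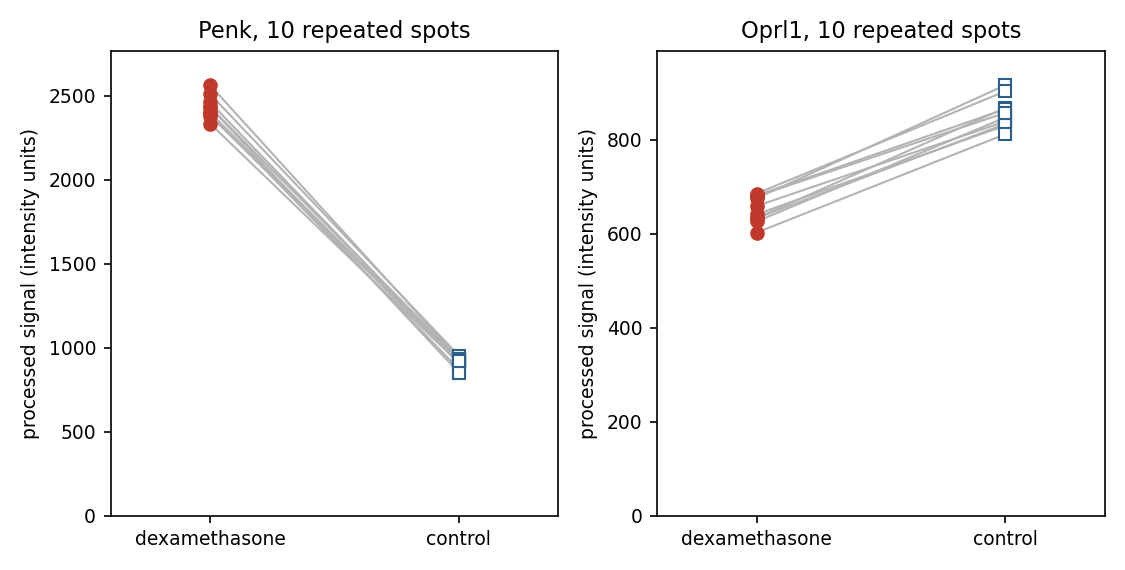
Processed signal (intensity units, axes from 0) of the 10 repeated spots of Penk and of the Oprl1 probe at base 2502, in the dexamethasone array (left) and the control array (right), with lines joining the same spot position. All 10 Penk pairs are higher and all 10 Oprl1 pairs are lower in the dexamethasone array.

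Among the receptors, Oprm1, which encodes the mu receptor that binds enkephalins, beta-endorphin and morphine, had the largest difference. All 3 of its probes were lower in the dexamethasone array. The brightest, drawn from transcript variant 1, gave 97.6 in the dexamethasone array and 176.4 in the control array, a difference of -0.93 (1.90-fold lower). The shared probe, which the files assign to 4 transcript variants, gave 42.2 in the dexamethasone array and 82.2 in the control array, a difference of -1.04 (2.05-fold lower), which is past 2-fold. These 2 probes had scanner errors of 0.21 each. They lie at different genome positions, and start at base 2246 of transcript variant 1 and at base 1207 of another variant, MOR-1A.

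The remaining Oprm1 probe, drawn from the MOR-1B2 variant, was dim, with 13.0 in the dexamethasone array and 16.5 in the control array (-0.42, scanner error 0.29). Background handling mattered for this gene. With normexp background correction the brightest probe was at -0.71, the shared probe at -0.61 and the MOR-1B2 probe at -0.0037. With no background subtraction they were at -0.66, -0.56 and -0.15. Neither brighter probe passed 2-fold under those settings. Oprm1 ranked 407th from the lowest of the 14176 genes.

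Oprl1, the nociceptin receptor gene, was lower by a smaller but closely repeated amount. The probe at base 2502 had 10 spots, with a mean of 651.6 ± 28.5 in the dexamethasone array and 856.9 ± 32.6 in the control array (SD over 10 spots). Spots lay between 602.1 and 685.3 in the dexamethasone array and between 811.6 and 915.9 in the control array. The difference was -0.47 (1.39-fold lower), with a scanner error of 0.20 and an SD of 0.044 between spot positions. The differences of single positions ran from -0.53 to -0.41.

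The other Oprl1 probes were dim. The probe at base 1285 gave 15.8 in the dexamethasone array and 26.5 in the control array (-0.82, and -0.20 with normexp). The probe at base 603 gave 10.8 in the dexamethasone array and 13.8 in the control array (-0.43, and -0.11 with normexp). The probe at base 406 was below the background criterion on both arrays, with signals of 1.47 (dexamethasone) and 1.32 (control), and has no fold. The measured probes of this gene were alike in sign, and only the bright one had repeated spots.

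Oprk1, the dynorphin receptor gene, and Oprd1, the delta receptor gene, lay close to equality. The brighter Oprk1 probe gave 88.9 in the dexamethasone array and 98.5 in the control array (-0.22, scanner error 0.21), and the other gave 27.1 in the dexamethasone array and 29.1 in the control array (-0.18, scanner error 0.24). Oprd1 had 1 probe, with 115.5 in the dexamethasone array and 101.8 in the control array (0.11, scanner error 0.21). The Oprd1 difference and that of the dimmer Oprk1 probe were within the scanner error, and that of the brighter Oprk1 probe barely exceeded it. Between dynorphin and its receptor the values were thus 1.84 (Pdyn) and -0.22 (Oprk1), and between nociceptin and its receptor 0.67 (Pnoc) and -0.47 (Oprl1).

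**Figure D3:**
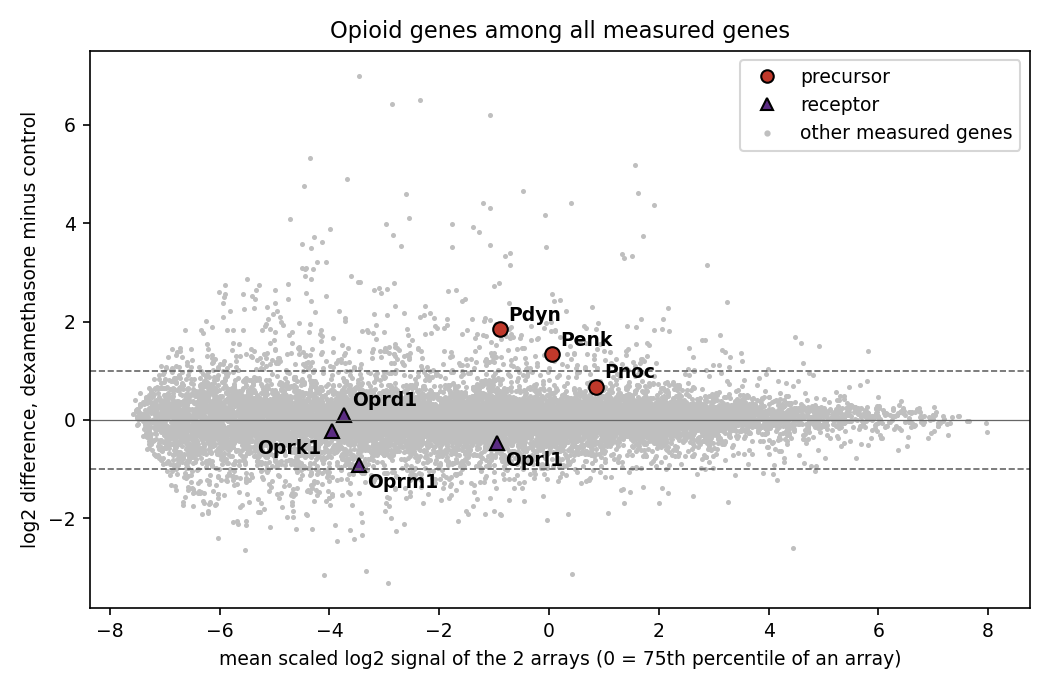
Log2 difference (dexamethasone minus control) against the mean scaled log2 signal of the 2 arrays for the 14176 named genes measured on both (grey), with precursors as red circles and receptors as purple triangles. Dashed lines mark 2-fold. Pdyn (1.84) and Penk (1.34) lie above the upper line, and Oprm1 (-0.93) lies just inside the lower one.

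The values of all 7 genes kept their sign under all 11 alternative treatments of the data. These included other scalings, other background corrections and the authors' deposited table of values. Not all of them could move a value. With no filter on dim probes, or with a mean log2 signal of 6 or more required, each gene kept its main value. Averaging the probes of a gene could not change a gene with 1 probe. Pdyn ran between 1.73 and 1.85 and Penk between 1.27 and 1.35, both past 2-fold throughout. Pnoc ran between 0.62 and 0.69, Oprl1 between -0.58 and -0.44, Oprk1 between -0.28 and -0.17, and Oprd1 between 0.056 and 0.15. Oprm1 had the widest range, -0.98 to -0.66. In the authors' deposited table the differences were 1.84 for Pdyn, 1.30 for Penk and 0.64 for Pnoc. Quantile normalization gave the same values after rounding, so these 2 settings do not count as separate checks.

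**Figure D4:**
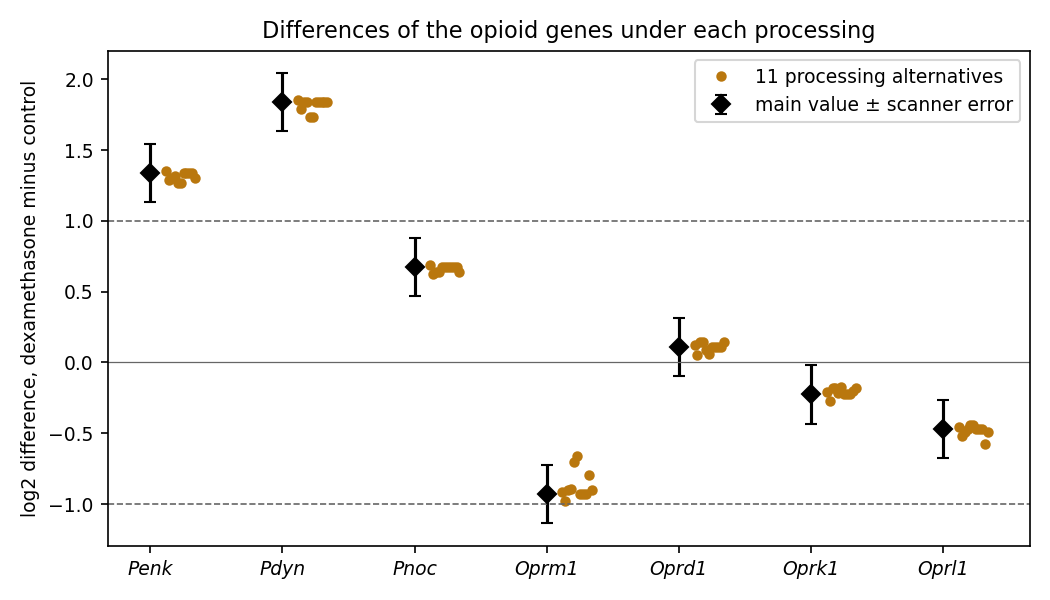
Log2 difference (dexamethasone minus control) of each gene's brightest probe, as the main value with the scanner error (black diamonds, bars of 1 error each way) and under 11 processing alternatives (brown points, where 1 averages the probes of a gene). Dashed lines mark 2-fold. Pdyn and Penk stay above 1 and Oprm1 moves between -0.98 and -0.66.

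Of 45 other genes of precursor processing, peptide breakdown, receptor coupling and opioid naming, 42 were measured. In the dexamethasone array 3 of these passed 2-fold upward and 1 downward, beside 3.37% and 2.38% of all measured genes. Either way that is 9.52% of the 42, beside 5.76%. The median of the 42 was 0.0035.

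Pomc, whose precursor yields beta-endorphin, gave 1609 in the dexamethasone array and 1296 in the control array (0.24), and so differed less than the 3 precursors above. The enzymes and chaperones that mature the precursors also lay close to equality: the convertases Pcsk1 and Pcsk2 were at 0.07 and -0.12, the carboxypeptidase Cpe at 0.15, Scg5, the chaperone of Pcsk2, at 0.13, and Pcsk1n, the inhibitor of Pcsk1, at -0.05. The 6 peptidases that can break down opioid peptides had a median of -0.12 and were all below 0, as were 48.7% of all measured genes, with Ece2, an endothelin-converting enzyme, the lowest at -0.56. These are the brightest probes, and another probe of Ece1 was at 0.26. Mme, the enkephalinase neprilysin, was at -0.0086 and above 0 under other scalings (0.0076 with median scaling and 0.028 with quantile normalization), which left 5 below 0. None of these 12 genes passed 2-fold.

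Downstream of the receptors, the inhibitory G protein genes lay between -0.20 (Gnao1) and 0.24 (Gnai2), and the receptor kinases and arrestins, which end receptor signalling, between -0.26 (Arrb1) and 0.27 (Grk5). The effector genes were more mixed. Kcnj6, a subunit of the potassium channel that opioid receptors open, gave 848.5 in the dexamethasone array and 341.8 in the control array (1.24). Its partner subunits Kcnj3 and Kcnj9 were at 0.42 and -0.59, and at 0.65 and -0.25 on their other probes. Adcy1, a calcium-stimulated adenylyl cyclase, gave 133.8 in the dexamethasone array and 55.4 in the control array (1.20), while Adcy8 and Adcy5 were at -0.85 and -0.31.

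Rgs14, a regulator of G proteins abundant in the CA2 field of the hippocampus, had the largest difference of these genes, with 2411 in the dexamethasone array and 193.2 in the control array (3.57, or 11.8-fold). Rgs4, another regulator that shortens opioid receptor signals, was at -0.62. The 1 gene past 2-fold downward was Npff, the precursor of neuropeptide FF, which modulates opioid action, with 167.4 in the dexamethasone array and 512.2 in the control array (-1.69). Neither array had its receptor genes Npffr1 and Npffr2 well above background. Transcription regulators tied to Pdyn or Penk were at 0.48 (Kcnip3), 0.50 (Creb1) and 0.54 (Fos), and Fosb had no named probe. Genes named for opioids without being classical receptors included Opcml (0.71), Ogfrl1 (-0.18) and Ogfr (-0.26).

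**Figure D5:**
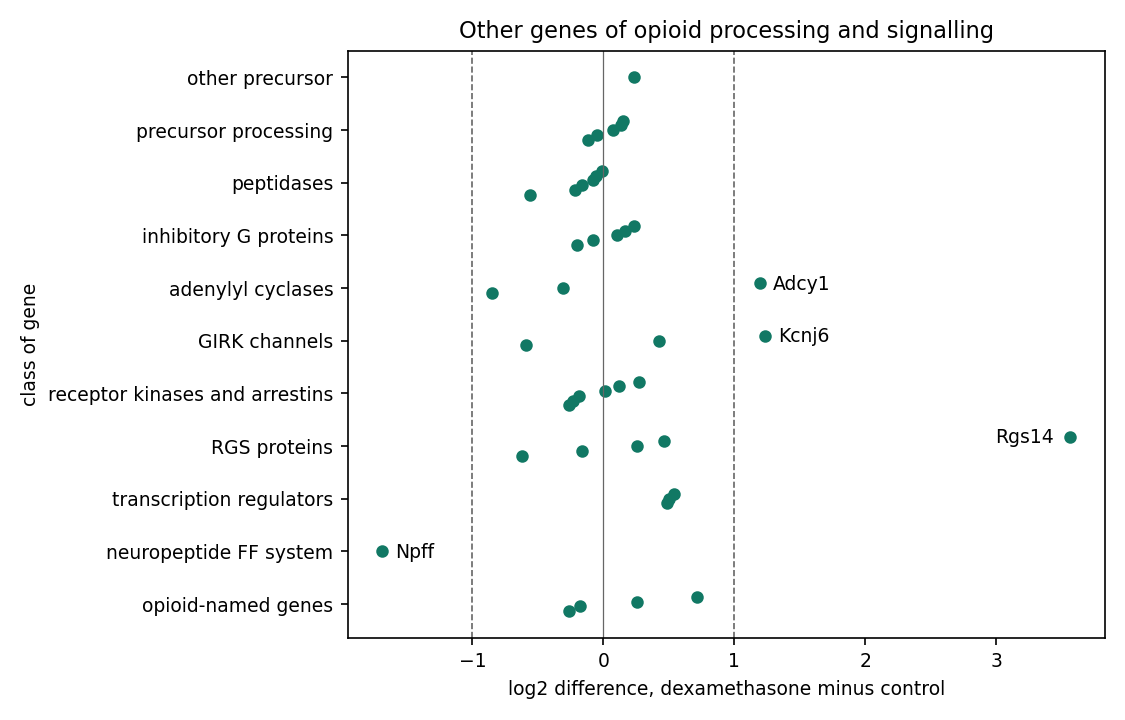
Log2 difference (dexamethasone minus control) of 42 measured genes around opioid peptides and receptors, by class; each point is 1 gene and points are spread vertically for legibility. Dashed lines mark 2-fold. Rgs14, Kcnj6 and Adcy1 lie above 1 and Npff below -1, and the other 38 genes lie between.

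Markers of other regions and cells differed between the arrays together with these genes. Striatal projection neurons are a major source of Penk and Pdyn: of 7 measured markers of these cells 6 were above 0. Their median was 0.68, with a summed signal of 16769 in the dexamethasone array and 15504 in the control array. Summed signals here and below are intensities before scaling. The 75th percentile used for scaling was itself 1477 in the dexamethasone array and 1402 in the control array. Among the striatal markers past 2-fold was Drd2, the dopamine receptor of the enkephalin cells (1.03, and 0.52 on its other probe). Tac1, the substance P precursor and also a habenular marker, was at -0.43. Tac1 alone gave 8384 of the summed signal in the dexamethasone array and 10715 in the control array, and the other 6 summed to 8386 in the dexamethasone array and 4789 in the control array. Gpr6 was below the background criterion on both arrays.

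All 7 measured markers of pallial neurons were past 2-fold upward, with a median of 2.55 and a summed signal of 28181 in the dexamethasone array against 2238 in the control array. Tbr1 passed the background criterion with dexamethasone only. The 4 markers of dentate granule cells, which also make dynorphin, were at 0.06 to 1.14, with a summed signal of 1730 in the dexamethasone array and 843.5 in the control array. The lowest of them, Tdo2, was dim, with 8.79 in the dexamethasone array and 8.03 in the control array. Of 4 lateral hypothalamic markers 3 were higher, among them Hcrt (0.67), the orexin precursor of a dynorphin-making cell type, while Lhx9 was at -0.94. Their summed signal was 28845 in the dexamethasone array against 12265 in the control array. Most of that was Pmch, with 25625 in the dexamethasone array and 10608 in the control array. The part of these cells in the Pdyn, Penk and Pnoc values was not tested.

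Beside Oprm1, which is abundant in the medial habenula and parts of the thalamus, all 4 habenular markers were lower, between -1.91 and -0.43, with a summed signal of 8835 in the dexamethasone array and 12013 in the control array. Most of that was Tac1, and the other 3 summed to 451.1 in the dexamethasone array and 1299 in the control array. Among these 3, Chrnb3 was dim, with 9.02 in the dexamethasone array and 15.4 in the control array. All 6 thalamic markers were lower, between -1.19 and -0.69, with 65917 in the dexamethasone array and 117412 in the control array. Their part in the Oprm1 and Oprl1 values was not tested. Markers of the paraventricular nucleus itself were mixed: Avp was at -1.91, Oxt at -1.38 and Crh at 1.39, with a summed signal over 6 measured markers of 3121 in the dexamethasone array and 6074 in the control array. Sim1, a factor that specifies the nucleus, was dim, with 12.0 in the dexamethasone array and 14.1 in the control array, and Otp passed the background criterion with dexamethasone only. Pdyn and Avp, which vasopressin neurons of this nucleus both make, differed in opposite directions in this bulk tissue. Which cells gave the Pdyn value was not tested.

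Arcuate and ventromedial markers, whose region also holds dynorphin and beta-endorphin neurons, were at -0.76 to 1.85 (median -0.07 over 5 measured, 2 above 0). Their summed signal was 21799 in the dexamethasone array and 17831 in the control array. Npy alone, at 1.85, gave 11754 of that sum in the dexamethasone array and 3085 in the control array. Tac3, made by the arcuate cells that also make dynorphin, was at -0.76, and Kiss1 was below the background criterion on both arrays. Which cells gave the Tac3 value was not tested. Glial markers had medians of 0.09 for astrocytes, 0.23 for oligodendrocytes and 0.14 for microglia, over 3 genes each. Among them Gfap, the astrocyte filament gene, was at 0.73, and at 1.14 on another probe. Mbp, a myelin protein gene, was at -0.03, with another probe at -0.69.

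Among the genes nearest to Pdyn in mean signal and difference were Pcdh20, a protocadherin (1.84), and Igfbp4, an insulin-like growth factor binding protein (1.70). They lay within 0.18 log2 units of Pdyn in the plane of these measures, which over 2 arrays describes likeness in 1 difference only.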

How the data were processed

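Values came from deposited scanner output, a linear intensity per spot made with Agilent Feature Extraction. The file headers give version 10.7.1.1 for the grid placement step, and the submitters' processing notes give Feature Extraction 9.5.1.1. The scanner software had subtracted the background from the deposited processed intensity. The sources used here do not name the algorithm or centring of the authors' deposited value table. Its linear intensity has a median of 149.9 in both columns. Above an intensity of 10 the sorted columns differed by at most 0.024%, as columns do after quantile normalization.

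Spots with an outlier mark (249 dexamethasone, 267 control) were left out. Spots of 1 probe were averaged as log2 intensity, and each array's 75th percentile (1477 dexamethasone, 1402 control) was subtracted. A probe was measured where at least 50% of its spots were well above background on both arrays, and a gene took its brightest measured probe. Names were updated through RefSeq genes of GRCr8, and 9148 probes matched no gene there and were left out of gene counts. Probes well above background made up 78.2% in the dexamethasone array and 79.5% in the control array. Both arrays lay on 1 slide, where position cannot be told apart from group. Over 1315 repeated probes the between-array difference had a median spot SD of 0.041.

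Named were all probes of the 7 genes, pathway genes past 2-fold or among the 3 largest, 3 genes nearest to Pdyn, and striatal markers past 2-fold; any other gene was picked with its values in view. Some genes that meet the rule or stand in a list are not reported here. The members and lists were chosen with earlier results of these data known. Another 12 settings were tried. Python 3.11.15 and limma 3.58.1 were used, and the gene-level code was tested on simulated data.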

Additional observations from a re-analysis of the deposited data

How the results depend on the processing

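The number of opioid genes past 2-fold was 2 under each of 11 alternatives and 4 with a 1.5-fold rule, which adds Pnoc and Oprm1. For the 42 measured pathway genes the number was 4, of which 3 were upward. With either background alternative it was 3, of which 2 were upward. Of all named genes 2.92% passed with normexp correction and 2.91% with no background subtraction. It was 8 (19.0%) with the 1.5-fold rule, which 14.8% of all named genes passed. None of the 7 opioid genes changed sign under the 11 alternatives, some of which left the values as they were. Oprm1 moved most, to -0.71 with normexp correction and -0.66 with no background subtraction. Over all named genes the count past 2-fold was 816, and 414 with normexp correction, where 68.6% of them were higher against 58.6%. No paired analysis was possible because each group had 1 array. With 1 array per group, the spread between animals and the effect of the position on the slide were not measured. Low signal over background limits the Oprm1 values and the dim Oprl1 probes.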
